A study of Mus musculus with 12 samples.

Results

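The receptor for bacterial LPS and its regulators were followed across 4 treatments of bone marrow–derived macrophages (BMDMs). The 8 genes were Tlr4, Ly96, Cd14, Cd180, Ly86, Trem1, Hsp90aa1, and Rnf130, out of 43626 gene identifiers in the count files. They were chosen by name for their place in the TLR4 complex, the related RP105 complex, and their regulation. The choice was made with earlier results of these data known, and each gene matched 1 identifier. RNA-Seq was performed on 12 libraries, 3 for each treatment. BMDMs are macrophages grown in culture from mouse bone marrow, so they stand for cultured cells and not for tissue macrophages. The treatments lasted 6 hours and were PBS as vehicle, 3′SL (100 μg/mL), LPS (10 ng/mL), or LPS + 3′SL. 3′SL is 3′-sialyllactose, an acidic milk sugar of lactose and sialic acid, which the labels of the libraries write as HMO. Doses and time come from the paper, since the labels describe injections of mice as treatment. Neither strain, sex, and age of the mice nor donor and culture of a library are given in the labels. P-values therefore measure only the spread between these libraries, which may be technical.

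LPS is a lipid-bearing sugar chain that coats gram-negative bacteria. CD14, on the surface of macrophages, passes LPS to MD-2, the protein made by Ly96, which sits on the outer part of TLR4 and holds the lipid. The pair of TLR4 and MD-2 then dimerizes and signals from the cell surface and from endosomes. RP105, made by Cd180, resembles TLR4 but lacks its signaling tail, and pairs with MD-1, made by Ly86, in the way that TLR4 pairs with MD-2. In macrophages RP105 and MD-1 are known to restrain TLR4. TREM1 amplifies TLR responses through the adaptor DAP12, HSP90 alpha is a stress-inducible chaperone that has been found near LPS receptors, and RNF130 is a membrane-bound ubiquitin ligase.

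Between 20411741 and 26851890 reads were counted on genes per library (median 23375851). Levels are given in CPM, which relates the reads of a gene to the size of its library after scaling with edgeR's TMM factors (0.70 to 1.30). All 8 genes were among the 14308 that had enough counts for the fit. Trem1 had the lowest counts, 40 to 2138 reads per library, and Cd14 the highest, 4998 to 45004. Changes were tested with edgeR's quasi-likelihood test over all genes. A gene was called if its change reached 1.5-fold (0.585 on the log2 scale) and its p, adjusted by Benjamini-Hochberg, was below 0.05. All 8 macrophage markers examined were above 1 CPM in every library, and their summed level was 17630 to 28340 CPM. The libraries fell into 3 sets of 4 consecutive library numbers, each with 1 library of every treatment. After the treatment means were removed, libraries of a set deviated together (mean correlation 0.596, lowest 0.449). Where 3 values are given for a treatment, they are from library sets 1, 2, and 3, in this order. In bulk RNA, fewer cells of a type and less RNA per cell cannot be told apart.

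To see how activated macrophages adjust the LPS receptor itself, LPS was compared with PBS. Of the 8 genes, 4 were called, all higher with LPS, namely Cd14, Ly96, Ly86, and Cd180. Over all genes tested, 38.5% were called in this comparison, and 18.3% were called higher. The LPS libraries were all above the PBS libraries for 7 of the 8 genes, as they were for 27.3% of all genes tested, and Trem1 was the gene whose groups overlapped. The median log2 fold change was 0.68 over the 8 genes and -0.061 over all genes tested. This comparison depends on the scaling. When libraries were scaled by their total counts, the median over all genes moved to -0.71, the calls over all genes went from 2613 higher and 2889 lower to 1535 higher and 6657 lower, and Cd14 was then the only one of the 8 genes called. Relative to the median of all genes, the 8 changes were nearly the same under both scalings, for example 0.64 and 0.63 for Tlr4 and 1.26 and 1.23 for Ly96. A change of scaling moves all genes by nearly the same amount, so this was fixed in advance and does not test the rises.

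**Figure D1:**
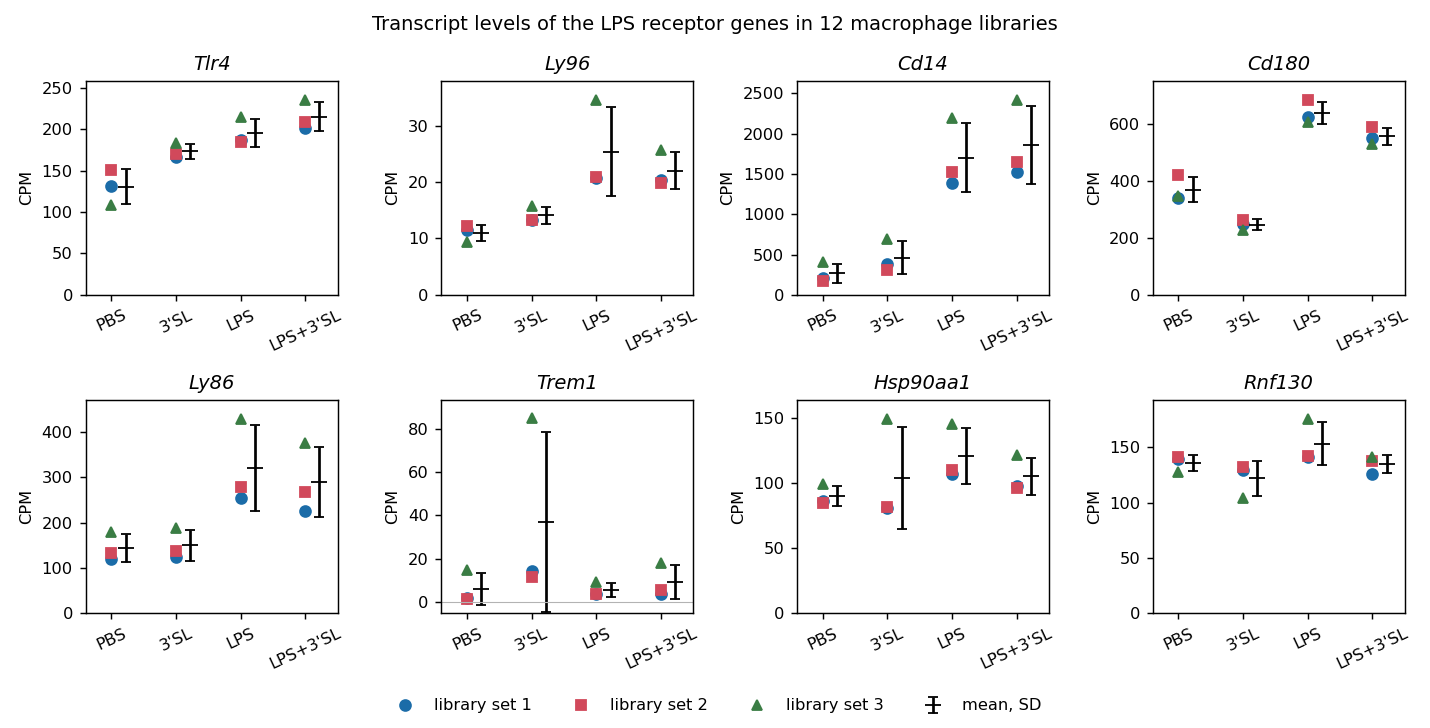
Transcript level (CPM, linear axis) of the 8 genes in each of the 12 libraries, by treatment, with symbols for the library sets and black bars for the mean and SD of 3 libraries. Cd14, Cd180, Ly86, Ly96, and Tlr4 lay above PBS in all LPS libraries with TMM scaling (the fitted change of Tlr4 was -0.081 with total counts), and Trem1 was highest in the 3′SL library of set 3 (85.0 CPM).

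Tlr4 lies on chromosome 4 (66827584 to 66930284, plus strand, GRCm38). Its level with PBS was 131, 151, and 109 CPM, and with LPS it was 187, 184, and 215 CPM. The groups did not overlap. With TMM scaling the change was 0.58 ± 0.13 (log2, SE, edgeR adjusted p = 0.0033), just below the 1.5-fold minimum, so Tlr4 was not called. With DESeq2, with DESeq2's size factors, and without the fold minimum it was called, and with total counts it was -0.081. In cells given 3′SL alone the level was 167, 170, and 184 CPM, above all PBS libraries. In LPS + 3′SL it was 201, 209, and 235 CPM, which overlapped LPS alone. The change with 3′SL was 0.41 ± 0.13 without LPS (edgeR, adjusted p = 0.358) and 0.14 ± 0.13 beside LPS (edgeR, adjusted p = 1.0). Within the sets, the difference between 3′SL and PBS was 0.34, 0.17, and 0.75, positive each time.

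Ly96 encodes MD-2, the part of the receptor that holds the lipid, and lies on chromosome 1 (16688051 to 16709611, plus strand, GRCm38). Its level was 11.5, 12.1, and 9.38 CPM with PBS and 20.8, 20.9, and 34.4 CPM with LPS. The LPS library of set 3 stood above the other two. The rise was 2.30-fold (log2 1.20 ± 0.21, SE, edgeR adjusted p = 8.2e-04), and by set it was 1.81-fold, 1.72-fold, and 3.67-fold. With 3′SL alone the level was 13.2, 13.2, and 15.7 CPM, all above PBS, and the change was 0.35 ± 0.21 (edgeR, adjusted p = 0.621). With LPS + 3′SL it was 20.4, 19.9, and 25.7 CPM, which overlapped LPS. That change was -0.20 ± 0.21 (edgeR, adjusted p = 1.0).

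Cd14, the co-receptor that hands LPS to the complex, had the largest response to LPS of the 8 genes. It is a short gene on chromosome 18 (36725067 to 36726798, minus strand, GRCm38). PBS libraries held 213, 175, and 406 CPM, and LPS libraries 1392, 1519, and 2193 CPM. The rise was 6.42-fold (log2 2.68 ± 0.39, SE, edgeR adjusted p = 2.5e-04), and it was 5.40-fold to 8.66-fold within the sets. Set 3 was the highest in every treatment. With 3′SL alone, Cd14 was at 384, 312, and 692 CPM, a range that overlapped PBS across sets. Within each set, however, 3′SL was above PBS, by 1.80-fold, 1.78-fold, and 1.70-fold. The fit without sets did not call this change (log2 0.80 ± 0.37, SE, edgeR adjusted p = 0.514), and its value was 0.35 without the 3′SL library of set 3 and 1.25 without the PBS library of set 3. With the sets as a block it was called (log2 0.81 ± 0.13, SE, edgeR adjusted p = 0.0095). Beside LPS, the within-set changes were 0.14, 0.11, and 0.14 on the log2 scale, and the 1531, 1643, and 2413 CPM of LPS + 3′SL overlapped LPS alone (log2 0.13 ± 0.37, edgeR adjusted p = 1.0).

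Per kilobase of exon, so that genes can be compared, Cd14 was the most abundant transcript of the 8 with PBS (153 ± 71.4 CPM per kb, SD, n = 3). Rnf130 (87.4 ± 4.66) and Cd180 (82.0 ± 9.64) followed and overlapped each other. Ly86 stood at 39.6 ± 8.63 CPM per kb. Tlr4 (23.5 ± 3.81) and Hsp90aa1 (22.9 ± 2.01) overlapped, and Ly96 (10.8 ± 1.41) lay below both. Trem1 was lowest, at 2.00 ± 2.50 CPM per kb. With LPS, Cd14 was again highest (982 ± 248 CPM per kb), and Cd180 (142 ± 8.70) stood above Rnf130 (98.3 ± 12.5). Rnf130 then overlapped Ly86 (88.2 ± 26.0). The next genes were Tlr4 (35.2 ± 3.04), Hsp90aa1 (30.7 ± 5.44), and Ly96 (24.8 ± 7.70), each of which overlapped the other two, and Trem1 was at 1.83 ± 1.01 CPM per kb. The length used was that of all annotated exons of a gene, merged, and the order depends on this choice. It was 4509 bases for Cd180, 3632 for Ly86, and 1558 for Rnf130. Their longest transcripts have 2650, 2684, and 1502 bases, and with these Cd180 and Ly86 would stand higher relative to Rnf130.

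The balance between a receptor and its partner was read from the ratio of reads per kilobase within a library, which no scaling between libraries can change. Tlr4 to Ly96 was 2.10, 2.29, and 2.13 with PBS and 1.66, 1.62, and 1.15 with LPS. The LPS ratios were all below the PBS ratios (log2 difference -0.58). With LPS + 3′SL the ratio was 1.82, 1.93, and 1.68, above all LPS libraries (log2 difference 0.31, and 0.14 without the LPS library of set 3). Both differences gave p = 0.1 in an exact 2-sided permutation test, the smallest that 3 against 3 libraries allow, and an adjusted p of 0.225 over 9 tests, so neither could pass the threshold. With 3′SL alone the ratio was 2.32, 2.36, and 2.14, which overlapped PBS (log2 difference 0.063, exact permutation test, p = 0.2, adjusted p = 0.257).

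The RP105 complex was examined next, as the known counterpart of TLR4. Cd180, which encodes RP105, was the gene of the 8 whose 3′SL libraries all lay below its PBS libraries. It was at 341, 420, and 348 CPM with PBS and at 248, 264, and 228 CPM with 3′SL. Non-overlapping groups with 3′SL lower were found for 8.53% of all genes tested. The change was -0.59 ± 0.11 (log2, SE, edgeR adjusted p = 0.258), so it was not called. DESeq2, also without the block, gave -0.58 ± 0.10 (DESeq2 adjusted p = 4.7e-05). That passed the p threshold, but at 1.495-fold it missed the fold minimum. The paper lists Cd180 among the genes that 3′SL lowered without LPS. The fit with the sets as a block gave -0.58 ± 0.071 (edgeR, adjusted p = 0.0030), which passed the p threshold and fell just short of the fold minimum. With total counts and the block it was -0.67 and was called (edgeR adjusted p = 0.0041). Within the sets the difference was -0.46, -0.67, and -0.61.

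With LPS, Cd180 rose to 625, 683, and 608 CPM (1.73-fold, log2 0.79 ± 0.11, SE, edgeR adjusted p = 2.4e-04). LPS + 3′SL gave 550, 588, and 531 CPM. These lay below all LPS libraries, in each set by a similar step (-0.18, -0.22, and -0.19, log2), but the difference was not called (log2 -0.20 ± 0.11, SE, edgeR adjusted p = 0.852, and 0.200 with the block). Cd180 lies on chromosome 13 (102693558 to 102739629, plus strand, GRCm38), and 182 of its exon bases overlap Mast4 on the other strand. Mast4 had 116 to 317 reads per library, against 5722 to 14094 for Cd180. B cells also express Cd180 and Ly86. The B cell markers Cd79a, Ms4a1, and Pax5 were under 1 CPM in all libraries, Cd79b was between 0.488 and 2.27 CPM, and Ighm was between 9.28 and 76.1 CPM, highest in the 3′SL library of set 3.

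Ly86, which encodes MD-1, the partner of RP105, is on chromosome 13 as well (37345208 to 37419036, plus strand, GRCm38). It was at 119, 133, and 179 CPM with PBS and at 253, 279, and 428 CPM with LPS (2.23-fold, log2 1.16 ± 0.26, SE, edgeR adjusted p = 0.0042). The groups did not overlap, and set 3 was highest in each treatment. Without set 2 the change was 1.19 ± 0.40 and was no longer called (edgeR adjusted p = 0.071). With 3′SL alone it was at 125, 136, and 188 CPM, within 1.05-fold of PBS in every set (log2 0.062 ± 0.26, edgeR adjusted p = 0.974). With LPS + 3′SL it was at 226, 268, and 374 CPM, again overlapping LPS. With TMM scaling, Cd180 and Ly86 thus both rose with LPS, whereas without LPS their values with 3′SL differed. With total counts, the log2 changes with LPS were 0.14 for Cd180 and 0.48 for Ly86, neither of them called. The ratio of Cd180 to Ly86 per kilobase was 2.30, 2.55, and 1.57 with PBS and 1.59, 1.56, and 0.973 with 3′SL. It was lower with 3′SL in all 3 sets, although the groups overlapped (log2 difference -0.64, exact permutation test, p = 0.2, adjusted p = 0.257). With LPS the ratio was 1.70 ± 0.48 and with LPS + 3′SL 1.63 ± 0.43 (SD, n = 3).

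**Figure D2:**
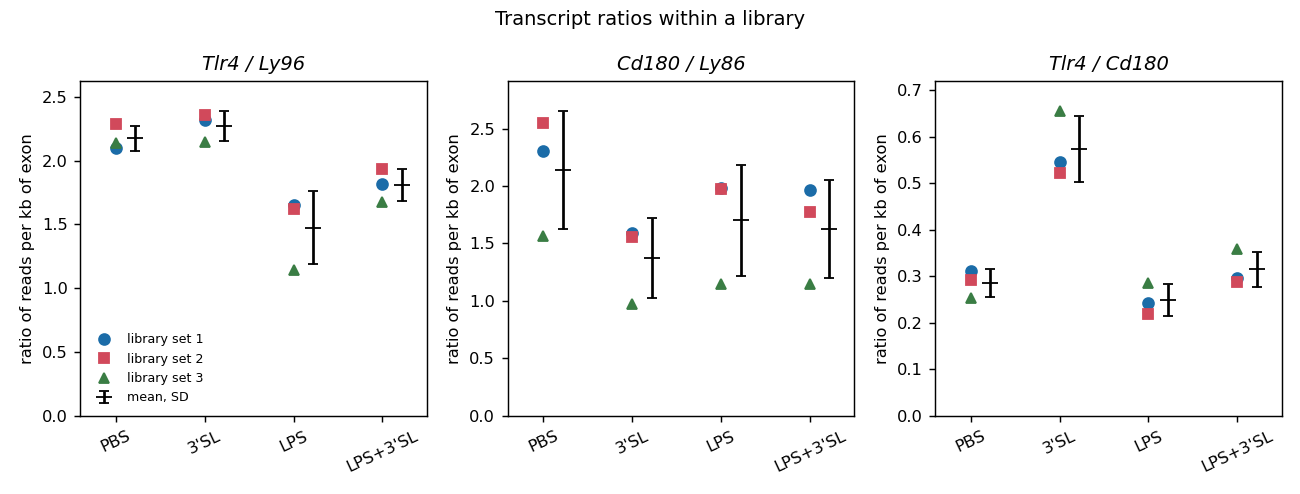
Ratio of reads per kilobase of exon of 2 genes in the same library (linear axes from 0), by treatment, with symbols for the library sets and black bars for the mean and SD of 3 libraries. Tlr4 to Cd180 was highest with 3′SL alone (0.574 ± 0.071), and Tlr4 to Ly96 was lowest with LPS (1.47 ± 0.28).

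Tlr4 and Cd180, the activating and the restraining receptor, had log2 differences of opposite sign with 3′SL alone (0.41 and -0.59), neither of them called. The ratio of Tlr4 to Cd180 per kilobase was 0.312, 0.292, and 0.254 with PBS and 0.545, 0.523, and 0.655 with 3′SL. It was higher in all 3′SL libraries, with a log2 difference of 1.003 (exact permutation test, p = 0.1, the smallest possible, adjusted p = 0.225). The ratio combines the differences of Tlr4 and Cd180 given above, so it is not separate evidence for either. With LPS the ratio was 0.243, 0.219, and 0.287, and with LPS + 3′SL it was 0.297, 0.288, and 0.359. Those 2 groups did not overlap either (log2 difference 0.34, exact permutation test, p = 0.1, adjusted p = 0.225). The difference was present in 3 of 3 sets in both comparisons. Levels of protein at the cell surface were not measured in these libraries.

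The sequences in front of Cd180 and Ly86 are shown because these partner genes were both called higher with LPS under TMM scaling. That of Trem1 is shown because Trem1 had the largest change with 3′SL. RefSeq promoters (GRCm38.p6), from 250 bases before to 50 bases after the annotated start, matched 4 of the 8 genes. They were searched on both strands for the PU.1 core GAGGAA, the AP-1 site TGANTCA, the heat shock element GAANNTTC, and the NF-κB motif. Capitals mark a match, and the strand is plus for all 3.
Cd180, chr13:102693308-102693607: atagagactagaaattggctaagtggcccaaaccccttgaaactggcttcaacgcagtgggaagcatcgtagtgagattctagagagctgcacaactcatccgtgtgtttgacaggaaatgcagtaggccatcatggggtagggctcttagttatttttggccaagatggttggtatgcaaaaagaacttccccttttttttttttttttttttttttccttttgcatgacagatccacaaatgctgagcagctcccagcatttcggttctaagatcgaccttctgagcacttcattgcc
Ly86, chr13:37345095-37345394: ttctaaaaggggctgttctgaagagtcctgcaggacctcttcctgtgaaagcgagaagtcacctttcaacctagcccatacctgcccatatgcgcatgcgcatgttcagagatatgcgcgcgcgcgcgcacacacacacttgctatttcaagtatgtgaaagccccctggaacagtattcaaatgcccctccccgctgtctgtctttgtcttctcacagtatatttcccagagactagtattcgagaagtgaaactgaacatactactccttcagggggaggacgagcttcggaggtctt
Trem1, chr17:48232489-48232788: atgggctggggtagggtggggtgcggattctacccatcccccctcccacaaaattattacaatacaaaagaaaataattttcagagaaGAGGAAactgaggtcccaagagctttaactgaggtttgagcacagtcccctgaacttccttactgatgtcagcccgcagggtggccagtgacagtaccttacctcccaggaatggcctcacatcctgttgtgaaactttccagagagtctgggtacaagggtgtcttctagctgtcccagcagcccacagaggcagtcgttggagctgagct
The PU.1 core occurred once, in Trem1, at -162 to -157 from the start. PU.1 is the main lineage factor of macrophages, and its core was found in 28.3% of 32851 promoters of the same length. None of these 3 windows held the letters of the other motifs, which occurred in 7.81% (AP-1), 7.86% (heat shock element), and 8.46% (NF-κB) of all promoters.

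Trem1, the amplifying receptor, had the largest change with 3′SL of the 8 genes. It lies on chromosome 17 (48232768 to 48246924, plus strand, GRCm38). With PBS it was at 1.92, 1.40, and 14.6 CPM, and with 3′SL at 14.2, 11.4, and 85.0 CPM. Set 3 was several times above the other sets in both treatments, so the groups overlapped, but within each set 3′SL was higher, by 7.41-fold, 8.11-fold, and 5.81-fold. The fit without sets did not call the change (log2 2.62 ± 1.06, SE, edgeR adjusted p = 0.463). Its value depended on single libraries, at 1.05 without the 3′SL library of set 3 and 4.46 without the PBS library of set 3. With the sets as a block the change was 2.69 ± 0.32 and was called (edgeR, adjusted p = 0.0029). Without the block, it was called when set 3 was left out (2.92 ± 0.26, edgeR adjusted p = 0.0082) and not when set 1 (2.58, adjusted p = 0.937) or set 2 (2.58, adjusted p = 0.996) was left out.

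With LPS, Trem1 was at 3.76, 3.73, and 8.96 CPM, above PBS in sets 1 and 2 (1.95-fold and 2.66-fold) and below it in set 3 (1.63-fold lower). The pooled change was -0.13 ± 1.03 (edgeR, adjusted p = 0.936). Without set 3 it was 1.17 ± 0.25, and Trem1 was then called higher (edgeR, adjusted p = 0.0059). LPS + 3′SL gave 3.74, 5.42, and 18.2 CPM, which overlapped LPS, with within-set changes of -0.01, 0.54, and 1.02 (log2). The change with 3′SL was thus 0.74 ± 1.03 beside LPS. The difference between both 3′SL effects was -1.89 ± 1.45 without the block (edgeR, adjusted p = 0.887) and -2.15 ± 0.47 with it (edgeR, adjusted p = 0.043, called). With total counts and the block it was -1.97 and was not called (edgeR adjusted p = 0.081). The value without the block was -0.32 without the 3′SL library of set 3, -2.87 without the LPS + 3′SL library of set 3, and -3.72 without the PBS library of set 3. LPS + 3′SL lay below 3′SL alone in every set (-1.93, -1.07, and -2.23, log2), and this difference was called with the block (log2 -1.77 ± 0.31, SE, edgeR adjusted p = 6.2e-04). Without the block it was -2.02, and -0.49 or -3.00 without the 3′SL or the LPS + 3′SL library of set 3.

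Neutrophils also express Trem1 and Cd14, and their 8 markers were all above 1 CPM in some library. Their summed level in sets 1, 2, and 3 was 111, 209, and 434 CPM with PBS, 122, 225, and 242 CPM with 3′SL, 172, 355, and 794 CPM with LPS, and 173, 328, and 718 CPM with LPS + 3′SL. With 3′SL against PBS this sum was higher in sets 1 and 2 and lower in set 3, and Trem1 and Cd14 were higher in all 3 sets. Most of the neutrophil sum was S100a9 (mean 94.4 CPM with PBS and 173 CPM with LPS), Ngp (98.1 and 158), and S100a8 (45.7 and 83.5). Camp (8.05 and 18.0) and Cxcr2 (1.86 and 4.73) also had higher means with LPS. Mean Elane (0.94 and 0.66) and Mpo (1.85 and 1.71) were lower with LPS, and Ly6g was at 0.39 and 0.49 CPM. Stromal markers summed to 509 to 586 CPM in set 1 and to 21.7 to 85.5 CPM in the other sets. The 5 dendritic cell markers summed to 0.947 to 1.69 CPM with PBS and 1.005 to 2.54 CPM with 3′SL. Their sum was 5.52 to 15.0 CPM with LPS and 6.60 to 16.8 CPM with LPS + 3′SL. This sum was thus higher in all libraries that received LPS, but most of its rise was Xcr1. Mean Xcr1 was 0.539 CPM (PBS), 7.51 CPM (LPS), and 8.45 CPM (LPS + 3′SL). In the same order, Flt3 was at 0.148, 0.0735, and 0.143 CPM and Zbtb46 at 0.46, 0.85, and 0.40 CPM. Ccr7 (0.067, 0.48, and 0.84 CPM) and Siglech (0.10, 0.22, and 0.24 CPM) had higher means in both LPS treatments, but their groups overlapped and reads were few. Siglech had 0, 1, and 8 reads with PBS and 0, 1, and 10 with LPS. Ccr7 had 0, 0, and 6 reads with PBS and 2, 10, and 14 with LPS. Flt3 and Siglech were under 1 CPM throughout. The part of these cells in the results was not tested.

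Hsp90aa1 and Rnf130, which encode a chaperone and a ubiquitin ligase, were not called in any comparison with TMM scaling, with or without the block. Hsp90aa1 (chromosome 12, 110690605 to 110702728, minus strand, GRCm38) was at 86.2, 84.3, and 98.9 CPM with PBS and at 107, 110, and 145 CPM with LPS. The LPS libraries were all higher with TMM scaling (log2 0.43 ± 0.23, edgeR adjusted p = 0.149), but with total counts the change was -0.24. With 3′SL alone it was at 80.9, 81.7, and 149 CPM, high in set 3 only. Of its 50-base words 47.5% also occur in Gm12346, Gm5844, Gm5511, or Gm11912, so its counts are uncertain. Rnf130 (chromosome 11, 50025346 to 50104758, plus strand, GRCm38) was at 139, 141, and 128 CPM with PBS, 129, 133, and 104 CPM with 3′SL, and 142, 142, and 176 CPM with LPS. It was at 126, 138, and 141 CPM with LPS + 3′SL. Its LPS libraries were all above PBS with TMM scaling (log2 0.17 ± 0.12, edgeR adjusted p = 0.283), whereas total counts gave -0.50. LPS + 3′SL lay just below all LPS libraries (log2 -0.18 ± 0.12, edgeR adjusted p = 0.936).

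**Figure D3:**
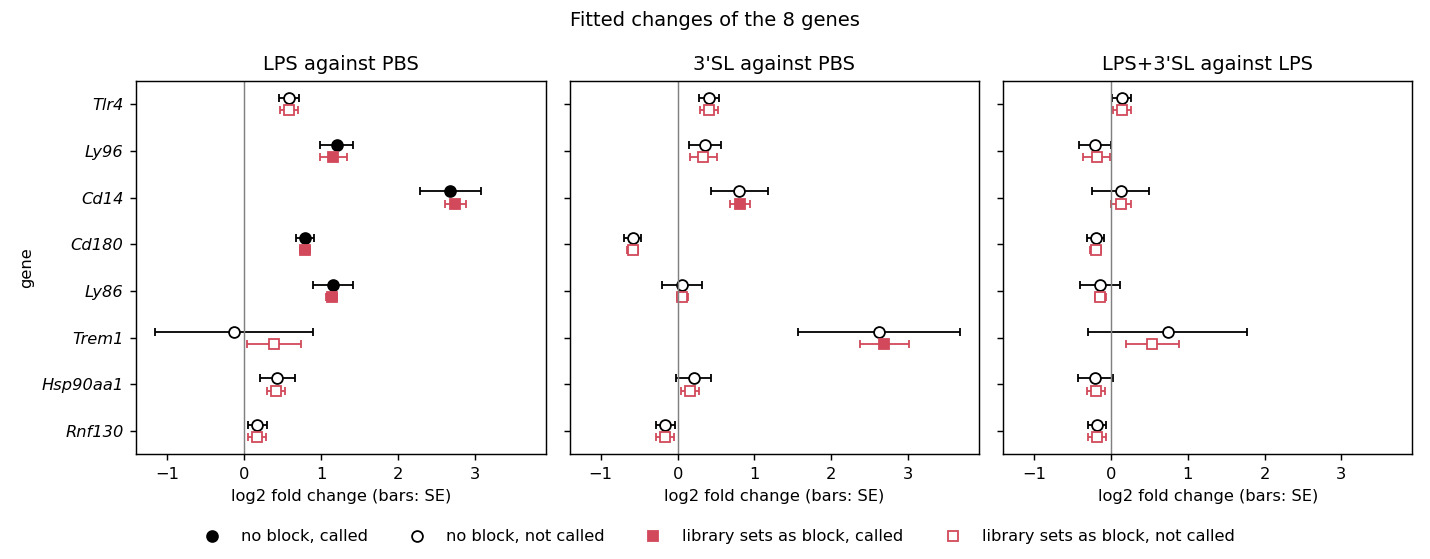
Log2 fold change with its SE (horizontal axis) of the 8 genes (vertical axis) in 3 comparisons, from the edgeR fit without (black) and with (red) the library sets as a block, with TMM scaling. Filled symbols are called genes, 4 with LPS in both fits (1 with total counts), and with 3′SL against PBS Trem1 and Cd14 with the block.

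Across the 8 genes, none was called for 3′SL against PBS, and the share of all genes called by edgeR was 0% as well, although 1439 genes had an unadjusted p under 0.05 and DESeq2 called 88. The 3′SL libraries were all above PBS for 2 of the 8 genes, Tlr4 and Ly96, against 9.02% of all genes tested, and all below for 1, Cd180. The median change was 0.28 over the 8 genes and 0.0013 over all genes. With the library sets as a block, 2 of the 8 were called, Trem1 and Cd14, both higher, where 2.84% of all genes were called.

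For LPS + 3′SL against LPS, no gene of the 8 was called, and edgeR called 0% of all genes (995 at an unadjusted p under 0.05, and 113 by DESeq2). With the block the 8 genes again gave 0 calls, where 1.45% of all genes were called. LPS + 3′SL was below LPS without overlap for 2 of the 8, Cd180 and Rnf130, against 6.50% of all genes. For the difference between both 3′SL effects, edgeR called 0% of all genes without the block (872 at an unadjusted p under 0.05, and 44 by DESeq2) and 1.55% with it. Trem1 was the gene of the 8 among the latter.

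**Figure D4:**
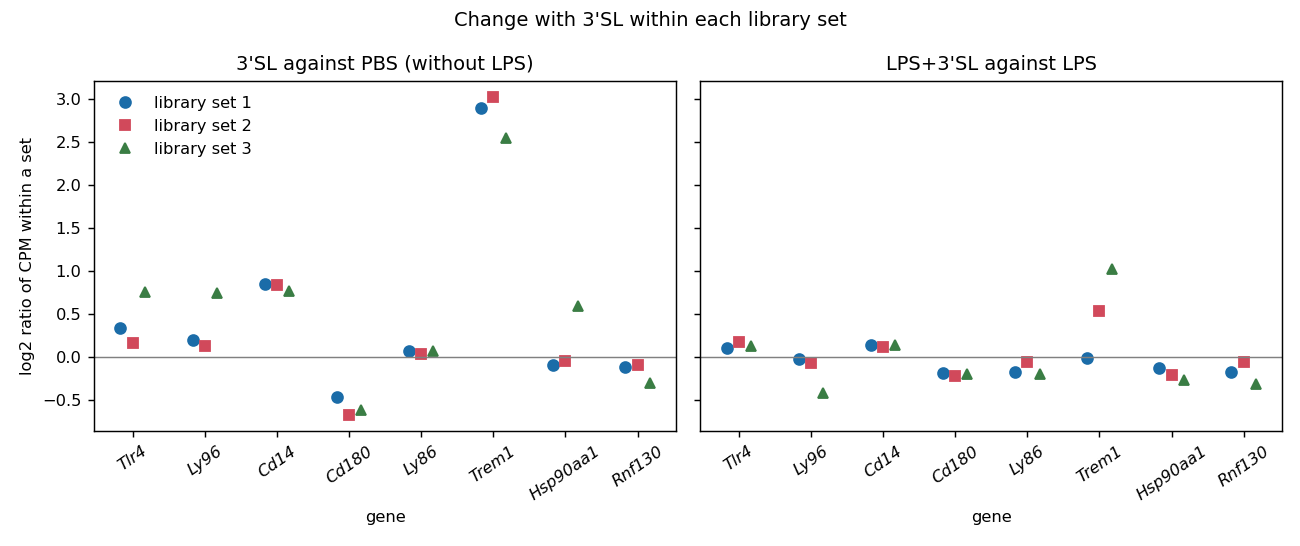
Log2 ratio of CPM within each library set (vertical axis) for the 8 genes, with 3′SL against PBS on the left and LPS + 3′SL against LPS on the right, on the same scale. Without LPS, the values were 2.54 to 3.02 for Trem1 and -0.67 to -0.46 for Cd180 in the 3 sets, and beside LPS those of Cd180 were -0.22 to -0.18.

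In cells that received 3′SL, LPS was compared with no LPS by setting LPS + 3′SL against 3′SL, which shares its libraries with the comparisons above. Of the 8 genes, 4 were called higher, where 29.2% of all genes were called and 14.3% were called higher. These were Cd180 (log2 1.18 ± 0.12, SE, edgeR adjusted p = 2.7e-05), Cd14 (2.01 ± 0.39, adjusted p = 0.0020), Ly86 (0.95 ± 0.26, adjusted p = 0.016), and Ly96 (0.64 ± 0.21, adjusted p = 0.033), the same genes that LPS raised in PBS. Ly86 and Ly96 lost the call without either the LPS + 3′SL library of set 3 or the 3′SL library of set 1 or 2, and also with total counts, where the median over all genes was -0.54. Cd180 went from 248, 264, and 228 CPM to 550, 588, and 531 CPM. The difference between both 3′SL effects was 0.39 ± 0.16 for Cd180 (edgeR, adjusted p = 0.788) and 0.38 ± 0.10 with the block (adjusted p = 0.081). For Cd14 it was -0.67 ± 0.53 (edgeR, adjusted p = 0.887) and -0.69 ± 0.18 with the block (adjusted p = 0.087).

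Genes around the receptor were then counted by role, beside the 38.5% of all genes that were called with LPS (18.3% higher). Of 13 genes that fold, carry, or turn over TLR4, 1 was called higher and 3 lower with LPS. Rab10, a GTPase that carries TLR4 to the cell surface, rose (log2 1.35 ± 0.17), and Cnpy4 (-0.96 ± 0.30), Rab7b (-0.91 ± 0.18), and Cnpy3 (-0.66 ± 0.14) fell. Rab7b sends TLR4 to lysosomes. Of 8 tested genes that bind or clear LPS, 4 rose and 1 fell. Casp4, the sensor of LPS in the cytosol, went from 11.7 ± 0.86 to 321 ± 81.7 CPM (SD, n = 3; log2 4.78 ± 0.23, SE, edgeR adjusted p = 3.9e-07). Aoah, which removes fatty acids from LPS and so inactivates it, went from 62.0 ± 6.33 to 316 ± 64.6 CPM (log2 2.35 ± 0.18, SE). Scarb1, a scavenger receptor for lipoproteins that also takes up LPS, fell (-0.84 ± 0.13).

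In the TREM family and its signaling, 2 of 9 rose with LPS and 2 fell, beside the same share over all genes. Treml2 (log2 2.27 ± 0.34) and the kinase Syk (1.80 ± 0.13) rose, and Treml1 (-1.57 ± 0.55) and the adaptor Card9 (-0.87 ± 0.15) fell. Of 12 genes of the HSP90 family and its co-chaperones, 4 rose and 3 fell. Among the genes called without the block, Hspa1b (3.06 ± 1.09) and Stip1 (0.96 ± 0.092) had the largest rises, and Hsph1 (-0.85 ± 0.23) and Ahsa1 (-0.64 ± 0.11) the largest falls. With the block Hspa1a was called as well (3.33 ± 0.91). Of 6 tested relatives of RNF130, which are ubiquitin ligases with a membrane anchor, 2 rose and 3 fell. Rnf150 fell from 105 ± 26.6 to 10.8 ± 1.96 CPM (SD, n = 3), Rnf128 fell by 1.04 ± 0.22, and Znrf3 (1.62 ± 0.47) and Rnf149 (1.46 ± 0.35) rose. The median log2 change with LPS was -0.070, 0.53, 0.11, 0.43, and -0.30 in these 5 lists in the order given, beside -0.061 over all genes. With total counts, these lists had 1, 3, 2, 0, and 1 genes called higher and 8, 2, 3, 3, and 3 called lower. Over all 14308 genes, 1535 were then called higher and 6657 lower.

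With 3′SL, with or without LPS, no gene of the 5 lists was called by edgeR without the block. With the sets as a block, 4 of the 48 tested were called for 3′SL against PBS, all higher, beside 2.84% of all genes. None of these was called with total counts and the block, where Ahsa1 was called lower (log2 -0.60 ± 0.072), beside 365 of 14308 genes. Hsp90b1, the chaperone gp96 that folds TLRs, was at 730, 770, and 870 CPM with PBS and at 1032, 1125, and 1470 CPM with 3′SL (log2 0.61 ± 0.090, SE, edgeR with block adjusted p = 0.0068). Casp4 was at 10.97, 11.5, and 12.6 CPM with PBS and at 19.0, 16.8, and 19.2 CPM with 3′SL (0.65 ± 0.13, adjusted p = 0.016). The groups did not overlap for either gene. Trem3 (1.17 ± 0.29, adjusted p = 0.038) and Treml4 (1.66 ± 0.41, adjusted p = 0.040), relatives of Trem1, were higher as well, with Treml4 at 86.6 CPM in the 3′SL library of set 3 and at 9.53 and 12.6 CPM in the other 3′SL libraries.

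The block also called 3 list genes for the difference between both 3′SL effects, beside 1.55% of all genes. With total counts and the block, Casp4, Rab7b, and Ahsa1 (0.70 ± 0.10) were called and Syk was not, beside 136 of 14308 genes called. Casp4 (log2 -0.88 ± 0.17, SE, edgeR with block adjusted p = 0.030) and Syk (-0.62 ± 0.12, adjusted p = 0.028) had the lower change beside LPS. For Rab7b the change was higher beside LPS (0.59 ± 0.11, adjusted p = 0.028). Syk was at 1003, 1156, and 1177 CPM with LPS and at 672, 787, and 856 CPM with LPS + 3′SL, without overlap. The 3′SL library of set 3 stood apart in heat shock genes, with Hspa1a at 36.6 CPM against 1.005 and 1.43 CPM in the other 3′SL libraries and Hspa1b at 76.7 CPM against 4.21 and 2.03 CPM. It was also the library with the highest Trem1 and Hsp90aa1. Whether these go together was not tested.

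Genes whose pattern was most like that of Tlr4 over the 12 libraries, by Pearson r of log2 CPM, were Ssr3 (0.959), Rtn3 (0.957), and Pcf11 (0.944). For Cd180 they were Atp6v1b2 (0.983), Slc25a44 (0.982), and Tbc1d1 (0.980). These values describe 12 libraries that share treatments and sets.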

How the data were processed

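RNA-Seq libraries of BMDMs were analysed, 3 per treatment as labelled. Raw counts of reads on genes were deposited by the authors, without normalization. The submitters' notes list FastQC, Trimmomatic, STAR, HTSeq, and DESeq2. Genome build, annotation, and strand setting of the counting are not given in the sources used here, so overlapping genes on opposite strands may share reads. Identifiers were matched without version to GENCODE M21 (GRCm38), and 42462 of 43626 had a symbol. The 8 genes and all lists were chosen with earlier results of these data known, and the library sets were known from them too.

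Counts were fitted with edgeR 4.0.16 (filterByExpr, TMM, quasi-likelihood test, all 12 libraries) in R 4.3.3. Alternatives were DESeq2 1.42.0, other scalings, filters, and groups in the fit, no fold minimum, a block for library sets, the longest transcript for ratios, and leaving out libraries. Leaving out whole sets, and total counts with the block, were added after the data were seen. Sets as pairs rest on the consecutive library numbers of the labels and on correlated deviations within sets (lowest 0.449). The mean of -0.30 between sets follows from removing the treatment means and adds no evidence for the sets. Libraries of a treatment differed beyond sampling noise (chi-square per gene at least 15.6). Named genes were the 8, the list genes called with LPS (at most 2 per direction, by size of change), list genes called with 3′SL, and 3 genes most like Tlr4 and Cd180. Cnpy3 was named beyond this rule. Hspa1a and the 3′SL values of Hspa1b were named after their values were seen. The model was also run on simulated counts, with set effects of the same spread in all sets, unlike these libraries. Its outcome is not given here, and no result rests on it. One marker of the lists is not reported here.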

Additional observations from a re-analysis of the deposited data

Results flagged for a closer look

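The change of Trem1 with 3′SL was compared between cells with and without LPS, and was called as different in 1 of the blocked fits. With the library sets as a block and TMM scaling, the difference of the 2 log2 changes was -2.15 ± 0.47 (SE, edgeR adjusted p = 0.043). By set, the log2 difference with 3′SL was 2.89, 3.02, and 2.54 without LPS and -0.01, 0.54, and 1.02 beside LPS, so it was smaller beside LPS in 3 of 3 sets. With total counts and the block it was -1.97 and was not called (edgeR adjusted p = 0.081). Without the block the difference was -1.89 ± 1.45 and was not called (edgeR, adjusted p = 0.887). Leaving out single libraries moved this value from -3.72 (without the PBS library of set 3) to -0.32 (without the 3′SL library of set 3).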

How the results depend on the processing

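Counts of called genes among the 8 moved by over 1.5 times in these settings, and the cause was not tested. For LPS against PBS, 1 was called in place of 4 with total counts, with or without the block. Over all 14308 genes tested, 8192 were called with total counts and 9098 with total counts and the block, against 5502 with TMM. For 3′SL against PBS, where 0 were called, the block gave 2, beside 406 of all 14308 genes. Total counts with the block gave 3 (Cd180 in addition), beside 365 of all genes, and leaving out set 3 gave 2. For LPS + 3′SL against 3′SL, leaving out single libraries gave 2 to 4, and leaving out set 1 or set 2 gave 2. For the difference between both 3′SL effects, the block and leaving out set 3 each gave 1 (Trem1), and total counts with the block gave 0, as did leaving out set 1 or set 2. Over all genes, the block called 222 for this difference and total counts with the block 136. Counts over all genes are not given here for fits that left out libraries. The replicate block changed no other count of called genes by over 1.5 times. For LPS + 3′SL against LPS, 0 were called in all settings run.

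Directions of single genes reversed with total counts (second value, with the block) for LPS against PBS in Tlr4 (-0.081 and -0.071), Hsp90aa1 (-0.24 and -0.24), and Rnf130 (-0.50 and -0.49), and for 3′SL against PBS in Ly86 (-0.032 and -0.026). For LPS + 3′SL against 3′SL they reversed in Tlr4 (-0.17 and -0.17), Hsp90aa1 (-0.45 and -0.43), and Rnf130 (-0.35 and -0.34), and for the difference in Rnf130 (0.15 and 0.15, and 0.0084 with all genes of at least 1 count). Trem1 with LPS reversed to 0.38 with the block and 1.17 without set 3. Hsp90aa1 was at -0.088 for 3′SL against PBS without set 3, and at -0.086 and -0.068 for LPS + 3′SL against 3′SL without set 1 or set 2. Rnf130 was at 0.019 for the difference without set 3.

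Leaving out single libraries gave these ranges where a sign changed. Trem1 with LPS gave -0.67 to 1.70. For 3′SL against PBS, Ly86 gave -0.17 to 0.25 and Hsp90aa1 -0.18 to 0.36. For LPS + 3′SL against LPS the ranges were -0.33 to 0.081 (Ly96), -0.098 to 0.36 (Cd14), -0.38 to 0.12 (Ly86), and -0.25 to 1.28 (Trem1). Hsp90aa1 in LPS + 3′SL against 3′SL gave -0.13 to 0.39. For the difference, Ly86 gave -0.44 to 0.058 and Rnf130 -0.091 to 0.087. The log2 ratio of Cd180 to Ly86 for LPS + 3′SL against LPS gave -0.32 to 0.18.

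With 3 libraries per treatment and 20411741 to 26851890 reads, Trem1 (40 to 2138 reads) had the largest SE of the 8 genes in every comparison. Over single genes and settings, 866 values kept their direction and their side of the call. A further 44 reversed, counted as such whether or not the call changed. Among values that kept their direction, 21 gained a call and 21 lost one.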
